A study of Mus musculus with 20 samples.

Results

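The vascular endothelium of limb muscle was followed through 7 genes that mark endothelial cells: Cdh5 and Cldn5 of the cell junction, the receptors Kdr, Tek, Tie1 and Robo4, and the adhesion molecule Pecam1. The members were all probe sets to which the platform annotation gives 1 of these genes as the only symbol. They came to 7 probe sets among the 10748 of the deposited table, for 6 of the 7 genes (of 6603 genes with a probe set of a single symbol), because no probe set here had Pecam1 as its only symbol. Signals were deposited as log2 values from 20 arrays, 1 per muscle sample, and a difference of 1 on that scale is a doubling. The arrays hybridised total RNA of whole muscle from female C57BL/6 mice aged 14 weeks, in 5 groups of 4. SOD1 gastrocnemius and SOD1 triceps came from symptomatic mice carrying the human SOD1G93A transgene (a mutant superoxide dismutase gene that causes motor neuron disease), for which the labels used here give no promoter or copy number. Crushed gastrocnemius came from mice whose sciatic nerve had been compressed for 30 s at 12 weeks of age, with the muscle taken 2 weeks later. The labels give no genotype for the crushed mice, and no sham-operated group was analysed here. NTg gastrocnemius and NTg triceps came from non-transgenic mice and served as controls for the transgenic muscles, and NTg gastrocnemius also for the crushed muscle.

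Endothelial cells line the dense capillary bed between muscle fibres. Cdh5 (VE-cadherin) and Cldn5 (claudin-5) are the adhesion proteins of their adherens and tight junctions, while Kdr (VEGF receptor 2), Tek (Tie2), Tie1 and Robo4 sit at the surface and take up signals for vessel growth and stability from VEGF, the angiopoietins and Slit or Unc5 ligands. In skeletal muscle the fibres are a source of VEGF-A, and capillary supply follows fibre type and activity. In whole muscle, fewer endothelial cells and less RNA per endothelial cell cannot be told apart.

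The promoters were read for short motifs of factors that act on endothelial genes. RefSeq starts on GRCm38.p6 were given for 5 of the 7 genes, and the 250 bases before each start were searched on both strands for the core GGAA of ETS factors, a family that acts on many endothelial genes. The windows of Cldn5 and Tie1 are shown as the ends of the range, with each GGAA or its complement TTCC in capitals, both lying wholly outside the annotated gene. That of Cldn5 is chr16:18776597-18776846 on the plus strand and that of Tie1 is chr4:118489850-118490099 on the minus strand.
Cldn5: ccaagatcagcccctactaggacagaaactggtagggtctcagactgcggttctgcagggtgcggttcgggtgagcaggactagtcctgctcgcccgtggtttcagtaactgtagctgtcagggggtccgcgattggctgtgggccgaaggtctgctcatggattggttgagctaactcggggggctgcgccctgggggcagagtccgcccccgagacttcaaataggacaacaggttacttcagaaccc
Tie1: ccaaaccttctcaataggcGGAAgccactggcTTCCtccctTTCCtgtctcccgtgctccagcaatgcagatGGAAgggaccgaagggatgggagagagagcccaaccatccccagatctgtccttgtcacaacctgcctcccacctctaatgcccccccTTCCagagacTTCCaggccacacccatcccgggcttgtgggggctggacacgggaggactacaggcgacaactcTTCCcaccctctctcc
The core was found 7 times in the Tie1 window, 4 times in that of Kdr, 3 times in that of Robo4, 2 times in that of Tek and not in that of Cldn5. Such a core is common, being present in 93.4% of the 32851 windows of all genes, and 3.82% of windows held at least 7. The longer form AGGAAG, which contains the core, was present in the Robo4 and Tie1 windows and in 29.5% of all windows. The letters CACCC, bound by KLF factors, were present in the windows of Cldn5, Kdr, Tek and Tie1, against 52% of all windows. The letters TGTTTAC of FOX factors were in none of the 5 windows, against 3.17% of all windows.

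The endothelial transcripts gave low to middling signals in muscle. Cdh5 (chr8:104101613-104144504, GRCm38.p6) had the brightest probe set, with a mean of 6.695 over the 20 arrays, at percentile 50.6 of the table. Cldn5 (chr16:18776847-18778262) averaged 6.16, Tek (chr4:94739086-94874976) 6.01, Robo4 (chr9:37401902-37414023) 5.94 and Kdr (chr5:75932827-75979072) 5.88. Probe sets in the lowest 30% by mean, under 5.876, were left out of the main test, so Kdr, at 5.879, lay just inside. A dimmer probe set of Cdh5, at 5.27, and Tie1 (chr4:118471191-118489849), at 4.80, lay below that limit, and their tests come from the same model fitted to the whole table without the filter. Signals of different probe sets are not comparable as RNA amounts, so each gene was compared only with itself across groups.

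Facts of the arrays that touch these results are as follows. Array medians lay between 6.61 and 6.76. Muscle fibre markers were high on every array, with a mean over 17 genes of 9.46 to 12.44. The description of NTg triceps replicate 4 names gastrocnemius, whereas its title, source name and tissue name triceps. Its signal of the slow myosin gene Myh7, at 3.64, lay within the other NTg triceps arrays (1.85 to 7.69) and below all NTg gastrocnemius arrays (9.95 to 12.04), and it was kept as triceps. NTg triceps replicate 1 correlated with NTg gastrocnemius (mean r = 0.963) slightly more than with the other NTg triceps arrays (0.953), its Myh7, at 7.69, was also below all NTg gastrocnemius arrays, and it was the highest of its group in 5 of the 7 endothelial probe sets. Crush replicate 4 stood apart, with the lowest mean correlation to its own group of all 20 arrays (0.917), and it was the lowest of its group in 6 of the 7 endothelial probe sets. Its deviations from the group mean went with those of SOD1 gastrocnemius replicate 4 (r = 0.447) and SOD1 triceps replicate 4 (r = 0.482). With NTg gastrocnemius and NTg triceps replicate 4 the values were 0.0751 and -0.0172. The fits without crush replicate 4 kept the SOD1 replicate 4 arrays. SOD1 triceps replicate 1 was the lowest of its group in 4 of the 7 and the lowest of all 20 arrays in 3. Medians and the results most moved by these arrays are given with and without them. The replicates are labelled as biological replicates, but no label ties a number to a mouse, so a mouse may have given both muscles.

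In SOD1 triceps the means of all 6 measured endothelial genes were below those in NTg triceps, but no gene passed the test, and Tie1 was below log2 5 on every array of both groups. The changes of the 5 genes past the filter ran from -0.60 for Cldn5 to -0.31 for Cdh5, and the groups of Robo4 and Cdh5 did not overlap. The junction gene Cdh5 read 6.24, 6.45, 6.51 and 6.42 in SOD1 triceps, against 6.92, 6.57, 6.58 and 6.77 in NTg triceps. Every SOD1 array lay below every NTg array, with means of 6.40 ± 0.12 in SOD1 and 6.71 ± 0.17 in NTg (SD, n = 4 each), a log2 change of -0.31 (SE 0.15, limma adjusted p = 0.335). Cldn5, which seals the tight junction, read 4.88, 6.21, 6.49 and 5.79 in SOD1 triceps, against 7.04, 6.46, 6.00 and 6.28 in NTg triceps. Those groups overlapped, and the change of -0.60 (SE 0.31, limma adjusted p = 0.348) leaned on SOD1 replicate 1, at 4.88. Without that array the Cldn5 change was -0.28 (SE 0.28).

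Robo4, a roundabout receptor that steadies the vessel wall, read 5.61, 5.38, 5.72 and 5.53 in SOD1 triceps, against 6.16, 5.75, 6.20 and 5.96 in NTg triceps. The groups did not overlap, at 5.56 ± 0.14 in SOD1 and 6.02 ± 0.21 in NTg (SD, n = 4 each), and the log2 change was -0.46 (SE 0.18, limma adjusted p = 0.249). It stayed near that size, at -0.47, without SOD1 replicate 1. Kdr, the main signalling receptor for VEGF-A, read 5.06, 5.93, 6.18 and 5.70 in SOD1 triceps, against 6.00, 6.46, 6.32 and 6.30 in NTg triceps. Only SOD1 replicate 3 lay inside the NTg range, and the change was -0.55 (SE 0.27, limma adjusted p = 0.328), or -0.33 without SOD1 replicate 1.

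Tek, the receptor of the angiopoietins, read 5.22, 5.89, 6.21 and 5.80 in SOD1 triceps, against 6.48, 6.47, 5.83 and 6.31 in NTg triceps. Its groups overlapped, with a change of -0.49 (SE 0.25, limma adjusted p = 0.34), or -0.31 without SOD1 replicate 1. Tie1, the partner receptor of Tek, read 4.13, 4.02, 4.62 and 4.57 in SOD1 triceps, against 4.96, 4.94, 4.51 and 4.83 in NTg triceps, a change of -0.48 (SE 0.29, limma adjusted p = 0.458). With signals below log2 5 set to 5, no difference of Tie1 was left. The dimmer Cdh5 probe set read 5.11, 3.96, 5.47 and 4.35 in SOD1 triceps, against 5.72, 5.11, 5.30 and 4.82 in NTg triceps, and it had the same sign as the brighter set, with a change of -0.52 (SE 0.34, limma adjusted p = 0.487). In linear terms the SOD1 means of the 5 genes past the filter were 0.658 to 0.807 of the NTg means.

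Of the 5 genes past the filter, 0 were called in triceps by limma at an adjusted p under 0.05, and 1 (Robo4) had an unadjusted p under 0.05. Over all 7523 tested probe sets 0.239% were called, all of them higher in SOD1, and 5.6% were lower with an unadjusted p under 0.05. In the fit without crush replicate 4, an array of neither group, Robo4, Cdh5, Kdr and Tek had an unadjusted p under 0.05. So did 20.2% of the table in either direction, and 0 of the 5 genes were called. The 2 genes with non-overlapping groups stand beside 2.3% of all tested probe sets that were lower without overlap. The median log2 change of the 5 genes was -0.49, against 0.01 for all tested probe sets, of which 5% had a change below -0.46. The median was -0.31 without SOD1 replicate 1, -0.48 without NTg replicate 4 and -0.41 without NTg replicate 1.

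**Figure D1:**
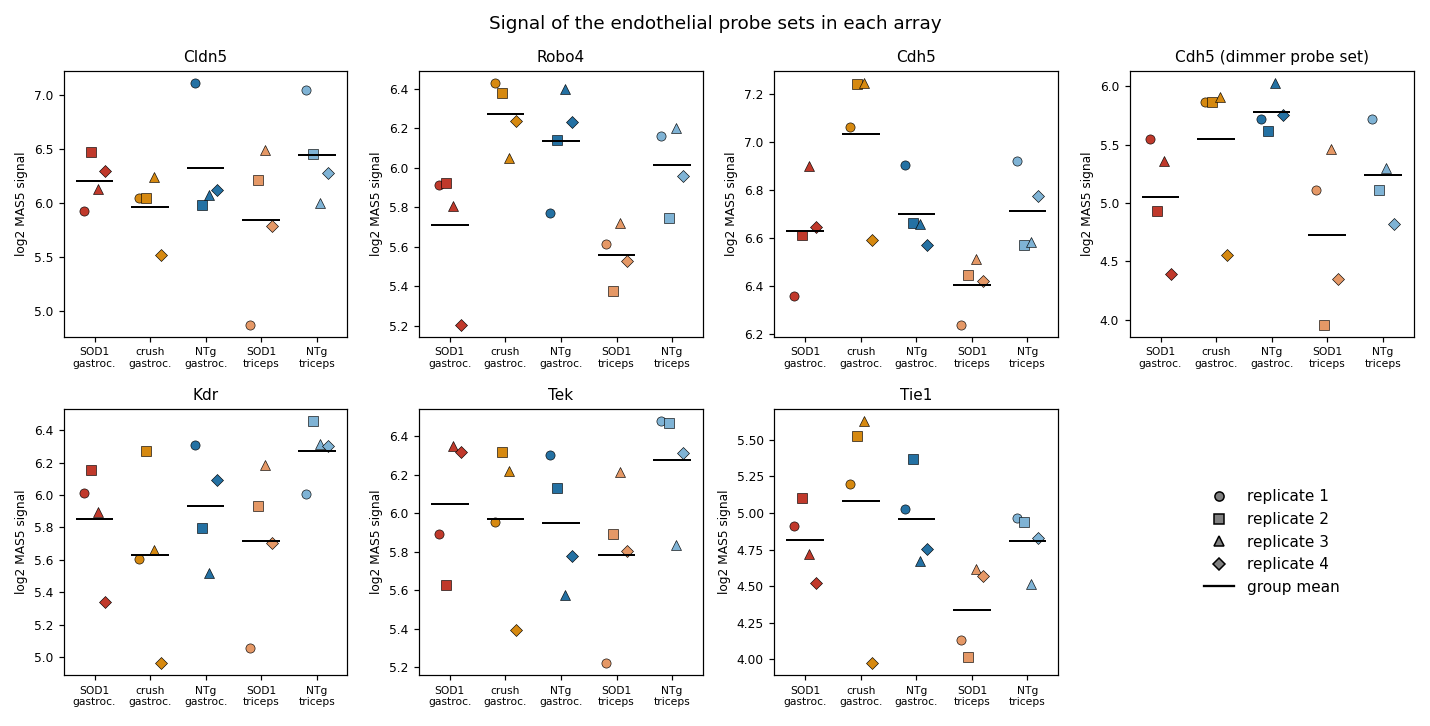
Each panel plots the log2 signal of 1 endothelial probe set on the y axis for the 5 groups on the x axis, with a symbol per replicate and a bar at the group mean (n = 4). Cdh5 and Robo4 show SOD1 triceps wholly below NTg triceps, and crush replicate 4 lies at the bottom of its group in every panel except Robo4.

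In SOD1 gastrocnemius no endothelial gene differed from NTg gastrocnemius in the test, and the changes lay within 0.14 of 0 except for Robo4 and the dimmer Cdh5 probe set. Robo4 read 5.91, 5.92, 5.81 and 5.21 in SOD1 gastrocnemius, against 5.77, 6.14, 6.40 and 6.23 in NTg gastrocnemius. SOD1 replicate 4 was the lowest and NTg replicate 1 fell among the SOD1 arrays, so the groups overlapped, with a change of -0.42 (SE 0.18, limma adjusted p = 0.118). Cdh5 read 6.36, 6.61, 6.90 and 6.64 in SOD1 gastrocnemius, against 6.90, 6.66, 6.66 and 6.57 in NTg gastrocnemius, a change of -0.07 (SE 0.15). The dimmer Cdh5 probe set differed from the brighter one here: it read 5.54, 4.93, 5.36 and 4.39 in SOD1 gastrocnemius, against 5.72, 5.61, 6.03 and 5.75 in NTg gastrocnemius. Its groups did not overlap, with a change of -0.72 (SE 0.34, limma adjusted p = 0.181), and 13.3% of the tested probe sets were lower without overlap. The 2 probe sets of Cdh5 share a gene and are not separate evidence.

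Cldn5 read 5.92, 6.47, 6.13 and 6.29 in SOD1 gastrocnemius, against 7.11, 5.98, 6.07 and 6.13 in NTg gastrocnemius. Of the SOD1 arrays, 3 lay between the lowest and highest NTg arrays and replicate 1 just below them, and the change was -0.12 (SE 0.31). Kdr read 6.01, 6.15, 5.90 and 5.34 in SOD1 gastrocnemius, against 6.31, 5.80, 5.52 and 6.09 in NTg gastrocnemius (change -0.08, SE 0.27). Tek read 5.89, 5.63, 6.35 and 6.32 in SOD1 gastrocnemius, against 6.30, 6.13, 5.58 and 5.78 in NTg gastrocnemius (change 0.10, SE 0.25). Kdr and Tek thus mixed freely between the groups, and Tie1, at 4.91, 5.10, 4.72 and 4.52 in SOD1 against 5.03, 5.37, 4.67 and 4.76 in NTg gastrocnemius, did too (change -0.14, SE 0.29). The limma test called 0 of the 5 genes past the filter and 1 (Robo4) had an unadjusted p under 0.05, where 12% of all tested probe sets were called and 29.5% had an unadjusted p under 0.05. Their median change was -0.08, against 0.00 for all tested probe sets.

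**Figure D2:**
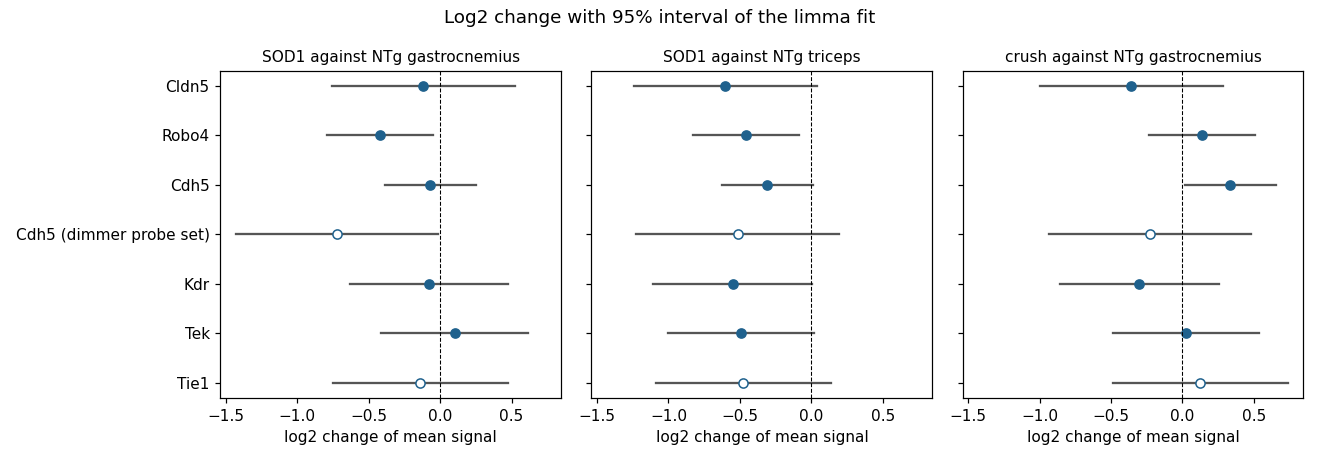
The x axis gives the log2 change of mean signal and the rows are the 7 endothelial probe sets, with the 95% interval of the limma fit as a line; open symbols are the probe sets below the filter. In triceps all 7 changes lie between -0.60 and -0.31, while in SOD1 and in crushed gastrocnemius they fall on both sides of 0.

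The 2 muscles were set against each other by the SOD1 effect in gastrocnemius minus that in triceps. All 5 genes past the filter had a positive difference, which 48.5% of the table had. By limma 0 were called, as was 0% of the table, and 0 had an unadjusted p under 0.05, which 9.44% of the table had. Tek differed by 0.59 (SE 0.35, limma adjusted p = 0.61), Cldn5 by 0.49 (SE 0.43), Kdr by 0.47 (SE 0.38), Cdh5 by 0.24 (SE 0.22) and Robo4 by 0.03 (SE 0.25). The median was 0.47, and 0.18 without SOD1 triceps replicate 1. The estimates for Robo4 in the 2 muscles were nearly equal, with a 95% interval of the difference from -0.49 to 0.56. The intervals of the other 4 genes spanned 0 and reached up to 0.69 for Cdh5 and 1.39 for Cldn5. Below the filter, the dimmer Cdh5 set had the opposite sign to the brighter one, at -0.21 (SE 0.48). Tie1 differed by 0.34 (SE 0.42), and both were uncalled. The lower means in SOD1 triceps are not shown to be particular to that muscle.

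Between gastrocnemius and triceps of the same genotype, no endothelial gene passed the test. In NTg mice the changes from triceps of the 5 genes past the filter ran from -0.34 for Kdr to 0.12 for Robo4 with 0 called, where 1.71% of the table was called. The probe sets below the filter had changes of 0.14 (Tie1) and 0.54 (dimmer Cdh5 set, SE 0.34), uncalled as well. In SOD1 mice all 5 means were higher in gastrocnemius, as were 46.1% in the table, by 0.13 (Kdr) to 0.36 (Cldn5), again with 0 called, where 4.84% of the table was called. Without SOD1 triceps replicate 1, Kdr turned to -0.09 (SE 0.26) and Cldn5 fell to 0.04 (SE 0.28). The median of the 5 was then 0.08, against 0.22 with all arrays. By limma 0 of the 5 had an unadjusted p under 0.05 in either comparison, against 14.3% of the table in NTg and 22% in SOD1 mice.

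In crushed gastrocnemius Cdh5 was the gene with the highest change, and its level rested on whether replicate 4 was counted. Cdh5 read 7.06, 7.24, 7.25 and 6.59 in crushed muscle, against 6.90, 6.66, 6.66 and 6.57 in NTg gastrocnemius. Replicates 1 to 3 lay above every NTg array and replicate 4 within them, at a change of 0.34 (SE 0.15, limma adjusted p = 0.215). Without crush replicate 4 the crush mean was 7.18 ± 0.10 (SD, n = 3) and the change 0.48 (SE 0.14, limma adjusted p = 0.0508), on the edge of the threshold. Tie1, at 5.20, 5.53, 5.63 and 3.98 in crushed muscle against 5.03, 5.37, 4.67 and 4.76 in NTg gastrocnemius, had the widest spread of all, and replicate 4 was the lowest of all 20 arrays. Its change was 0.13 (SE 0.29), and 0.50 (SE 0.24, limma adjusted p = 0.274) without that array.

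Robo4 read 6.43, 6.38, 6.05 and 6.23 in crushed muscle, the only gene in which replicate 4 was not the lowest, against 5.77, 6.14, 6.40 and 6.23 in NTg gastrocnemius (change 0.14, SE 0.18). Cldn5 read 6.04, 6.05, 6.24 and 5.52 in crushed muscle, against 7.11, 5.98, 6.07 and 6.13 in NTg gastrocnemius (change -0.36, SE 0.31). Apart from the high NTg replicate 1 and the low crush replicate 4, the Cldn5 arrays lay between 5.98 and 6.24, and the change was -0.21 without crush replicate 4. Kdr read 5.61, 6.27, 5.66 and 4.96 in crushed muscle (change -0.30, SE 0.27) and Tek 5.95, 6.32, 6.22 and 5.39 (change 0.02, SE 0.25), both overlapping the NTg arrays given above. The change was -0.08 for Kdr and 0.22 for Tek without crush replicate 4. The dimmer Cdh5 probe set, at 5.86, 5.86, 5.91 and 4.56, had a change of -0.23 (SE 0.34) and turned to 0.10 without replicate 4. The limma test called 0 of the 5 genes past the filter and 1 (Cdh5) had an unadjusted p under 0.05, where 4.13% of the table was called and 20.7% had an unadjusted p under 0.05. Their median change was 0.02, and 0.15 without crush replicate 4.

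SOD1 gastrocnemius was also set against crushed gastrocnemius, which the design names as the control for denervation. Robo4 was lower in SOD1 without overlap, at 5.71 ± 0.34 in SOD1 and 6.27 ± 0.17 in crushed muscle (SD, n = 4 each), a change of -0.56 (SE 0.18, limma adjusted p = 0.226). Cdh5 was lower too, with means of 6.63 ± 0.22 in SOD1 and 7.03 ± 0.31 in crushed muscle and a change of -0.41 (SE 0.15, limma adjusted p = 0.278). By limma 0 of the 5 genes were called, as was 0% of the table, and these 2 had an unadjusted p under 0.05, which 12.5% of the table had. Non-overlap in the lower direction was found in 2.61% of the table. Without crush replicate 4, Cdh5 passed the test, at -0.55 (SE 0.14, limma adjusted p = 0.0221) and without overlap, and Robo4 did not, at -0.57 (SE 0.19, limma adjusted p = 0.0726). In that fit 8.03% of the table was called, 4.29% in the lower direction. Tie1 (-0.64, limma adjusted p = 0.12) and the dimmer Cdh5 set (-0.82, limma adjusted p = 0.132) also had non-overlapping groups then. With only 3 crushed arrays left, groups separate more readily, and the share of the table without overlap is not given for that setting. Cldn5, Kdr and Tek had changes of 0.24, 0.22 and 0.08, with standard errors of 0.25 to 0.31 and overlapping groups. These 3 changes were 0.09, 0.00 and -0.12 without crush replicate 4, so that the sign of Tek turned, and the members' median was -0.12, against 0.08 with all arrays.

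Across groups, the order of mean levels was seldom resolved. SOD1 triceps had the lowest mean for Cldn5, Robo4, Cdh5, Tek and Tie1, and for the dimmer Cdh5 set, while crushed gastrocnemius had the lowest for Kdr. The top place went to crushed gastrocnemius for Robo4, Cdh5 and Tie1, to NTg triceps for Cldn5, Kdr and Tek and to NTg gastrocnemius for the dimmer Cdh5 set. Only 3 of 28 gaps between neighbours in these orders exceeded the larger of the 2 SDs. These were crush above NTg triceps and SOD1 gastrocnemius above SOD1 triceps for Cdh5, and NTg triceps above SOD1 triceps for Tie1.

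For each array the 5 genes past the filter were averaged as z-scores, each gene scaled to mean 0 and SD 1 over the 20 arrays. The values were -1.88, -0.52, 0.13 and -0.79 in SOD1 triceps, against 0.99, 0.45, 0.12 and 0.49 in NTg triceps. SOD1 triceps replicate 3, the highest of its group in all 7 probe sets, met the lowest NTg array. In SOD1 gastrocnemius they were -0.35, -0.01, 0.26 and -0.49, in crushed gastrocnemius 0.35, 0.96, 0.52 and -0.94, and in NTg gastrocnemius 0.82, 0.05, -0.20 and 0.05. The crushed arrays thus reached both above and below all other gastrocnemius arrays.

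**Figure D3:**
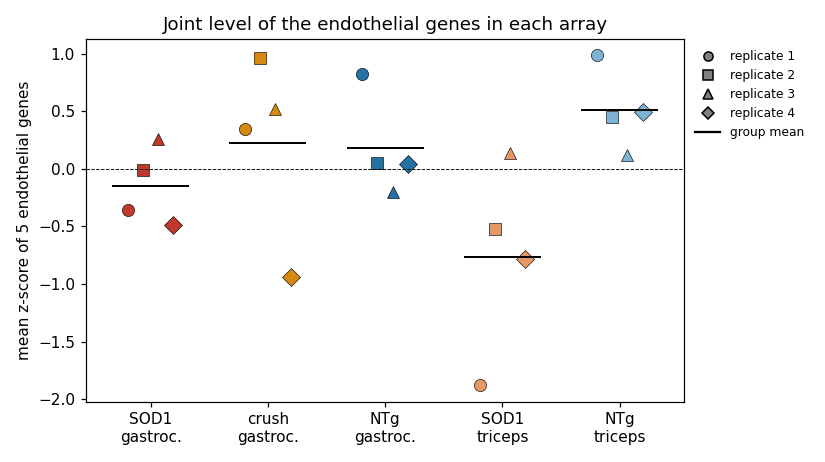
The y axis is the mean z-score of the 5 endothelial genes past the filter for each array, the x axis the 5 groups, with a symbol per replicate and a bar at the group mean. SOD1 triceps replicate 1, at -1.88, and crush replicate 4, at -0.94, are the lowest arrays.

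Of the 21 pairs of endothelial probe sets, 19 had a positive correlation over the 20 arrays (median r = 0.44), and 18 had with the group means removed (median 0.45). Within groups the strongest was Cdh5 with Tek, at 0.75, and the lowest Robo4 with Tek, at -0.43. The within-group correlations were weaker without crush replicate 4, with 15 positive pairs and a median of 0.22, and the same share over all genes was not computed. Robo4 was also negative within groups with Cldn5 (-0.27) and Cdh5 (-0.14) but positive with the dimmer Cdh5 set (0.54), so it did not follow the arrays in which Cldn5, Cdh5 and Tek were low together. These correlations are descriptions over arrays that share groups.

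The genes most like this mean z-score over the 20 arrays, by Pearson's r among 4827 other genes, were Lgals9 (0.85), the basement membrane collagens Col4a2 (0.83) and Col4a1 (0.82), Egfl7 (0.82), a protein secreted by endothelial cells, and Actg1 (0.82). Cavin2, a caveolar coat protein, followed at 0.79, Vegfa at 0.78, Tm4sf1 at 0.78, Tpm4 at 0.77 and Podxl at 0.77. With group means removed the order was Col4a1 (0.89), the apelin receptor Aplnr (0.89), Tm4sf1 (0.87), Col4a2 (0.87) and Igfbp7 (0.87). Both lists include crush replicate 4, low in the mean z-score (-0.94) and in Aplnr, at 6.45 against 8.28, 8.31 and 8.63 in the other crushed arrays. Values without that array are not given for these genes. In SOD1 against NTg triceps none of these genes was called by limma in the fit to all arrays.

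Other endothelial markers had the same sign as the members in triceps. Of 17 past the filter, 16 had a lower mean in SOD1 than in NTg triceps, 0 were called by limma, and their median change was -0.37, against 0.01 for the table, in which 48.2% of probe sets had a lower mean. Ptprb, the endothelial phosphatase that acts on Tek and Cdh5, read 6.10, 5.86, 5.76 and 5.86 in SOD1 triceps, against 6.44, 6.93, 6.52 and 6.64 in NTg triceps. Its groups did not overlap, with a change of -0.74 (SE 0.19, limma adjusted p = 0.107). Egfl7 read 6.90, 7.14, 7.44 and 6.86 in SOD1 triceps, against 7.80, 7.61, 7.97 and 7.68 in NTg triceps, also without overlap, with a change of -0.68 (SE 0.21, limma adjusted p = 0.17). Without crush replicate 4, an array of neither group, both passed the test (limma adjusted p = 0.0256 for Ptprb and 0.0443 for Egfl7). Their SE was then 0.17, against 0.19 and 0.21 with all arrays. Of the table, 2.22% was called in that fit and 0.279% was called lower, against 0.239% called with all arrays. Why the calls grew was not tested. That fit also called genes of other lists in triceps: Vtn (-0.74, limma adjusted p = 0.0112), a pericyte marker, fell, and the macrophage gene Lgals3 (2.31, limma adjusted p = 0.00274) and Ets2 (0.61, limma adjusted p = 0.0166) rose, where 1.94% of the table was called higher. In SOD1 gastrocnemius the same 17 genes had a median of 0.07 with 0 called.

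In crushed gastrocnemius the 17 other markers had a median change of 0.10, 13 with a higher mean and 0 called by limma. Without crush replicate 4, 16 had a higher mean, the median was 0.27 and 4 rose: Cav1 (0.69), the caveolin of caveolae, Cd34 (0.54), Ramp2 (0.99), the adrenomedullin co-receptor, and Cd93 (1.003), with limma adjusted p of 0.0225 to 0.0451, where 2.27% of the table was called higher. Aplnr rose there as well, by 1.79 (SE 0.39, limma adjusted p = 0.0139). Cd93 and Aplnr fell in SOD1 against crushed gastrocnemius without that array (changes of -0.93 and -1.41, limma adjusted p = 0.042 and 0.0335). Crush replicate 4 had the lowest mean of its group over the 17 markers, at 7.13 (group median 7.87). Leaving it out raises their crush mean by construction, so these calls are not separate evidence of a rise after crush. The part of crush replicate 4 in these values was not tested beyond leaving it out.

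The pathways of the receptors were followed in the other genes measured. Vegfa, the ligand of Kdr, read 6.98, 7.25, 7.62 and 7.41 in SOD1 triceps, against 8.13, 7.65, 7.64 and 7.76 in NTg triceps. The groups did not overlap, with a change of -0.48 (SE 0.26, limma adjusted p = 0.378). In gastrocnemius it read 7.10, 7.95, 7.28 and 7.07 in SOD1, 8, 7.90, 8.13 and 6.56 in crushed and 7.91, 7.85, 7.67 and 7.88 in NTg muscle, with a change of -0.48 (SE 0.26, limma adjusted p = 0.235) for SOD1 against NTg. Without crush replicate 4, Vegfa fell by 0.66 in SOD1 against crushed muscle (SE 0.19, limma adjusted p = 0.0375). Of the 9 VEGF and hypoxia genes past the filter, 7 had a lower mean in SOD1 triceps (median -0.20), with 0 called by limma in triceps, in SOD1 gastrocnemius (median -0.06) or in crushed muscle (median 0.05). In the fit without crush replicate 4, Egln1 (-0.59, limma adjusted p = 0.02) and Egln2 (-0.36, limma adjusted p = 0.0333), oxygen-sensing hydroxylases, fell in SOD1 against NTg gastrocnemius. There, 9.24% of the table was called lower. Egln3, a hydroxylase of the same family, went the other way with all arrays and was uncalled. Its change was 0.64 (SE 0.22, limma adjusted p = 0.0636) in SOD1 gastrocnemius and 0.82 (SE 0.22, limma adjusted p = 0.12) in SOD1 triceps.

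Among the 6 angiopoietin and Tie signalling genes past the filter, Foxo1, a transcription factor that Tek signalling holds in check in endothelium and that acts in muscle atrophy as well, rose in SOD1 gastrocnemius by 0.72 (SE 0.18, limma adjusted p = 0.0167). This 1 call among 6 stands beside 12% of the table called there. The medians of the 6 were 0.15 in SOD1 gastrocnemius, -0.01 in SOD1 triceps and -0.03 in crushed muscle, with 0 others called. The 4 Slit and Robo genes past the filter (Cdc42, Rac1, Nck1 and Nck2) encode GTPases and adaptors used by many cells, and 0 were called by limma in the 3 contrasts with NTg (medians -0.08, 0.11 and 0.04 in SOD1 gastrocnemius, SOD1 triceps and crushed muscle). When crush replicate 4 was left out, Cdc42 rose (0.52, limma adjusted p = 0.0253) and Rac1 fell (-0.37, limma adjusted p = 0.0407) in SOD1 gastrocnemius, where 17.8% of the table was then called. Of 14 partners of the endothelial junction, Ctnna1 (alpha-catenin) rose by 1.10 (SE 0.27, limma adjusted p = 0.017) and the actin-binding Cttn by 0.93 (SE 0.17, limma adjusted p = 0.00524) in SOD1 gastrocnemius. These 2 calls among 14 stand beside 12% of the table called there, and 11 of 14 means were higher, against 49.8% of the table. Cttn rose also in crushed muscle, by 0.74 (SE 0.17, limma adjusted p = 0.0179), and 0 partners were called in SOD1 triceps. These partners are made by many cell types, and Cdh5 itself was not called in any of the 3 contrasts. Of 7 endothelial transcription factors, Ets2 rose in SOD1 gastrocnemius (0.76, SE 0.21, limma adjusted p = 0.0249) and 0 were called in the other contrasts with NTg. That is 1 call among 7, beside 12% of the table called in SOD1 gastrocnemius. Ets2 was called in triceps too when crush replicate 4 was left out, as given above. In that fit Tcf4 rose in SOD1 gastrocnemius (0.40, limma adjusted p = 0.0397), where 17.8% of the table was called.

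Markers of other cell types were read beside these values. In SOD1 triceps 15 of 17 muscle fibre markers had a lower mean (median -0.64), with per-array means of 9.46 to 10.9 in SOD1 and 10 to 11.69 in NTg triceps. There, 8 of 10 pericyte and smooth muscle markers (median -0.31) and 7 of 8 fibroblast markers (median -0.37) had lower means as well, while macrophage markers divided 5 to 5 (median 0.00), with Lgals3 far above the others at 2.31 (SE 0.50, limma adjusted p = 0.0571). With all arrays 0 genes of these 4 lists were called by limma in triceps. Their part in the lower endothelial means of SOD1 triceps was not tested. In SOD1 gastrocnemius the endothelial median near 0 stood beside macrophage markers of which all 10 had a higher mean and 7 rose: Lgals3 rose by 2.64, C1qa by 1.85, Ctss by 1.21 and C1qb by 0.93 (limma adjusted p = 0.00427 to 0.0256), where 12% of the table was called. Leaving out crush replicate 4, 8 macrophage markers rose there, where 17.8% of the table was then called. So did Lum (0.77) of fibroblasts and Acta2 (0.57) of smooth muscle in that fit (limma adjusted p = 0.0466 and 0.032). With all arrays the 8 fibroblast means were all higher in SOD1 gastrocnemius (median 0.28, 0 called). The lymphatic and fibroblastic marker Pdpn rose by 1.02 (SE 0.20, limma adjusted p = 0.00667), and the pericyte potassium channel subunit Abcc9 fell by 0.60 (SE 0.18, limma adjusted p = 0.0375) with a pericyte median of 0.03. In crushed muscle pericyte and fibroblast medians were 0.05 and 0.07 with 0 called, and the myelin gene Mbp of Schwann cells fell by 2.35 (SE 0.52, limma adjusted p = 0.0163). All 10 macrophage markers had a higher mean in crushed muscle too (median 0.36), with 0 called. Lgals3 had the largest of these changes, at 1.29 (SE 0.50, limma adjusted p = 0.143).

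**Figure D4:**
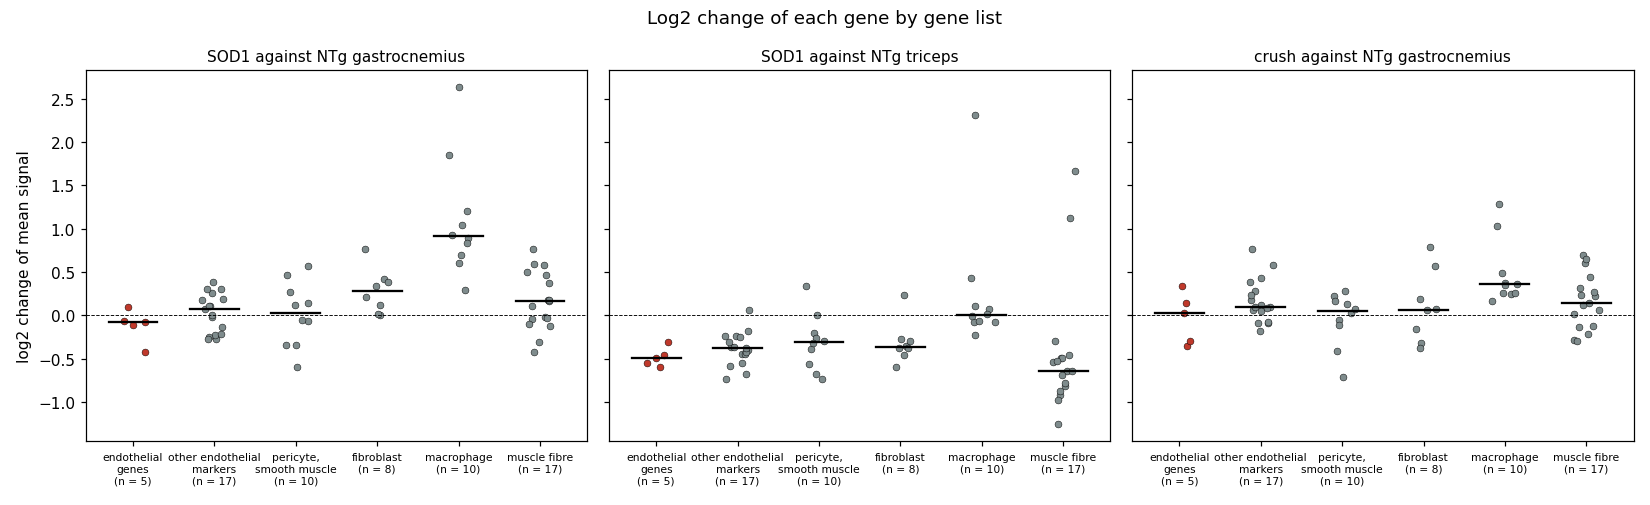
Each point is the log2 change of 1 gene, on the y axis, and each column on the x axis a gene list (n genes past the filter), with a bar at its median, for 3 contrasts with NTg. In triceps the endothelial genes (median -0.49) lie low beside the other endothelial (-0.37), pericyte (-0.31), fibroblast (-0.37) and muscle fibre (-0.64) markers, and in SOD1 gastrocnemius the macrophage markers (0.91) stand highest.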

How the data were processed

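Total RNA of whole muscle was hybridised to 20 arrays. The deposited table gives log2 signals of 10748 probe sets, made by the authors with MAS5, as the submitters' processing notes name it, with no version, target level, detection call or filter stated. No scaling was added. Of the probe sets, 9874 carry 1 symbol in the platform annotation, 387 carry several and 487 carry none; 9862 of those with 1 symbol were found by gene ID among RefSeq genes of GRCm38.p6. The dimmest 30% by mean signal (log2 mean under 5.876) were dropped, which kept 7523. The test was a limma 3.58.1 fit (lmFit and trended eBayes, R 4.3.3) of 5 group means over 20 arrays with 15 residual degrees of freedom. Within each of 7 contrasts, Benjamini-Hochberg adjustment ran over the 7523, and calls needed an adjusted p under 0.05. The fit was tested on simulated data. Arrays carry no counts, so their number limits the precision, and signal over background is unknown here. The members and gene lists were chosen with earlier results of these data known. The brightest single-symbol probe set stood for each listed gene. Named list genes are up to 4 of those called in a comparison, otherwise the 1 or 2 with the largest change, plus the genes most like the members; genes called only without crush replicate 4 and the slow myosin gene Myh7 were chosen for naming once their values were known. Whether equal replicate numbers mark the same mouse is unknown, and they were not used as pairs, since in none of the 10 pairs of groups did all same-numbered arrays deviate together with a correlation over 0.1. Some did deviate together. Between SOD1 gastrocnemius and SOD1 triceps the correlation was 0.572 for replicate 1 and 0.622 for replicate 4, but -0.101 and -0.0366 for replicates 2 and 3. It passed 0.1 for 3 of 4 numbers between SOD1 and crushed gastrocnemius, and between NTg gastrocnemius and NTg triceps. What these arrays share was not tested. Alternatives covered normalization, filters, a floor, blocks, array weights, the prior and leaving out each array. Figures were drawn with matplotlib 3.10.9.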

Additional observations from a re-analysis of the deposited data

Results flagged for a closer look

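Of 35 sets of 4 arrays (7 endothelial probe sets in 5 groups), 3 held an array whose gap to its nearest neighbour took up more of the group's range than Dixon's 95% critical value, and chance alone gives about 1 in 20. Cldn5 in NTg gastrocnemius had replicate 1 at 7.11 above the others, with a ratio of 0.872. Robo4 in SOD1 gastrocnemius had replicate 4 at 5.21 below the others, with a ratio of 0.838. The dimmer Cdh5 probe set in crushed gastrocnemius had replicate 4 at 4.56 below the others, with a ratio of 0.965.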

How the results depend on the processing

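In every comparison the count of endothelial genes called was 0, and it changed with array weights and with crush replicate 4. Crush against NTg had 1 call with array weights (Cdh5, 0.46, limma adjusted p = 0.0128), and SOD1 against crush had 2 (Robo4, -0.51, adjusted p = 0.045, and Cdh5, -0.49, adjusted p = 0.0139) and 1 without crush replicate 4 (Cdh5, -0.55). Calls grew over the whole table of 7523 as well. With array weights they were 1245 in crush against NTg and 1282 in SOD1 against crush, against 311 and 0 in the main fit. Without crush replicate 4 they were 604 in SOD1 against crush. The cause was not tested. Over all settings the limma adjusted p of Cdh5 ran from 0.0128 to 0.918 in crush against NTg and from 0.0139 to 0.618 in SOD1 against crush, and that of Robo4 in SOD1 against crush from 0.045 to 0.58. Leaving out arrays in turn, the calls were 0 to 1 for SOD1 against crush and 0 in the other comparisons by limma. The members' median ran from -0.64 to -0.31 for SOD1 against NTg triceps, from -0.20 to 0.05 for SOD1 against NTg gastrocnemius, from -0.10 to 0.15 for crush against NTg, from -0.12 to 0.19 for SOD1 against crush and from 0.18 to 0.63 for the SOD1 effect in gastrocnemius minus triceps, with 0.18 without SOD1 triceps replicate 1. It ran from -0.39 to 0.06 for gastrocnemius against triceps in NTg mice and from 0.08 to 0.31 in SOD1 mice. Of 1512 single-gene values under other settings, 37 did not keep their sign, and in 35 of these both values lay within their standard error and were uncalled. The other 2 were Cdh5 in NTg gastrocnemius against triceps, at 0.26 with the mean of its 2 probe sets, and Tie1 in SOD1 against NTg triceps, at 0 with values below log2 5 set to 5, where every array of both groups lies below the floor. Array weights also called the dimmer Cdh5 set in SOD1 against NTg gastrocnemius (-0.71, adjusted p = 0.0286). The replicate block changed no call, and the triceps median was -0.49 with it. A filter on the lowest 60% (log2 mean under 7.09) left 0 of the probe sets and gave no value.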
